A study of Mus musculus with 4 samples.

Results

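The IκB family is the set of inhibitors and partners of NF-κB that bind NF-κB subunits through ankyrin repeats. It was followed here through 6 genes, chosen by gene name out of the 55356 genes of the expression table. Of these, 3 encode classical, mainly cytoplasmic IκB proteins, *Nfkbia* (IκBα), *Nfkbib* (IκBβ) and *Nfkbie* (IκBε). The other 3 encode atypical, mainly nuclear IκB proteins, *Nfkbiz* (IκBζ), *Nfkbid* (IκBNS) and *Bcl3* (Bcl-3). Each gene had exactly 1 entry in the table. The mRNA of immortalized mouse bone marrow-derived macrophages (BMDMs) from mice lacking the kinase MK2 was sequenced in 4 libraries. Both lines carried the *MK2* knockout. The i*MK2*-KO +*GFP* line received an empty viral vector with a GFP marker, and the i*MK2*-KO +*MK2* line received MK2 from such a vector and is labelled wt in its genotype field. Each line was either left untreated (UT) or given recombinant murine IL-1α at 5 ng/mL for 1 h. Transduced cells were sorted for GFP, so each line is 1 sorted population, and its MK2 is driven by the vector and not by the endogenous gene. There was 1 library per condition.

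In resting cells classical IκB proteins hold NF-κB dimers in the cytoplasm. IL-1 receptor signaling activates the IKK kinases, which mark these proteins for ubiquitination and degradation, and released NF-κB then induces several IκB genes again, *Nfkbia* among them, which closes a negative feedback loop. Atypical IκB proteins act on NF-κB already bound to DNA, and IκBζ is known in macrophages as an inducible partner needed for a set of secondary inflammatory genes. MK2 acts below p38 and is known to phosphorylate tristetraprolin, an RNA-binding protein that shortens the life of mRNAs with AU-rich elements. The comparisons ask how the mRNAs of the family differ between macrophages with and without MK2, at rest and after IL-1α.

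Values are normalized counts, that is, read counts divided by a size factor of each library. They summed to between 24891906 and 25733071 per library. *Mapkapk2*, which encodes MK2, stood at 561 and 1585 normalized counts in the UT and IL-1α libraries of the +*GFP* line. It stood at 38357 and 38141 in those of the +*MK2* line, in the direction of the labels. The reference gene *Gapdh* was at 38926 and 38970 in the same +*MK2* libraries. No library of cells with endogenous MK2 was sequenced. Rescued cells and cells with MK2 therefore mean this vector-driven level, and its part in the results was not tested. All 8 macrophage markers examined were at 273 or more in every library and summed to between 115254 and 130041 per library. Some of them differed between the lines. *Mrc1* was at 273 and 282 in the UT and IL-1α libraries of the +*GFP* line against 1499 and 1488 in the +*MK2* line, *Adgre1* at 3978 and 4140 against 6832 and 6330, and *Cd14* at 3652 and 8072 against 1962 and 2250. Of the other markers, 8 for T cells, B cells, fibroblasts and epithelial cells were between 0 and 14, with the fibroblast and epithelial ones at 0. The dendritic cell marker *Flt3* was at 0, and *Zbtb46* was at 23 and 18 in the +*GFP* line against 104 and 115 in the +*MK2* line. The part of these line differences in the results on the IκB genes was not tested. In such bulk RNA a change in the share of cells that express a gene and a change in the amount of mRNA per cell cannot be told apart. With 1 library per condition no difference could be set against replicate error, and no p-value is given. Intervals in brackets are exact 95% Clopper-Pearson intervals of counting error only, with 1 normalized count taken as 1 read, so they are narrower than intervals over separate cultures would be. In the following, a gene is said to rise or fall, or to be higher or lower, only where that interval excluded equality. The 4 comparisons share the 4 libraries, so they are not independent of each other.

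Matches to NF-κB motifs in the promoters of the family are shown first, since several of these genes are known NF-κB targets. RefSeq promoter windows on GRCm38.p6, each reaching from 250 bases before a transcription start to 50 bases after it, were found for 5 of the 6 members, with 3 starts for *Nfkbid* and 1 for each of the others, which makes 7 windows. *Nfkbiz* had no entry. The 10-letter NF-κB consensus was searched on both strands. It occurred in 4.51% of all 32851 windows and more than once in 0.554% of them. It was present in the windows of *Nfkbia*, *Nfkbie* and *Bcl3* and in that of the second *Nfkbid* start. The matches are printed 5′ to 3′ on the strand of the gene, with the consensus in capitals and 10 bases on either side.
*Nfkbia*, chr12:55492657-55492686, minus strand: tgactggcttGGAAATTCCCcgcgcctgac
*Nfkbie*, chr17:45555584-45555613, plus strand: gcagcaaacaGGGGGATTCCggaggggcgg
*Nfkbid*, chr7:30422170-30422199, plus strand: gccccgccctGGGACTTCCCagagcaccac
*Nfkbid*, chr7:30422215-30422244, plus strand: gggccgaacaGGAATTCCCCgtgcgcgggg
*Bcl3*, chr7:19822734-19822763, minus strand: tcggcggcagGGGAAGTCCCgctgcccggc
The *Nfkbia* match spanned positions -29 to -20 relative to the start and the *Nfkbie* match -106 to -97. The *Nfkbid* pair lay at -226 to -217 and -181 to -172, and the *Bcl3* match lay just inside the transcript, at +3 to +12. On the gene's own strand the matches of *Nfkbie* and the first of *Nfkbid* read as the consensus, and the other 3 read as it on the opposite strand.

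The shorter pattern GGNNNTTCC, also searched on both strands, occurred in 18.5% of all windows and more than once in 2.16%. It overlapped every match above. Counting each position once, it occurred 3 times in the *Nfkbia* window, 2 times in that of *Nfkbie*, 2 times in that of *Bcl3*, and 0, 3 and 1 times at the 3 starts of *Nfkbid*. A position of *Nfkbia* that the consensus left out, -178 to -170, is shown because it holds the pattern in the direction of transcription.
*Nfkbia*, chr12:55492807-55492835, minus strand: ctggtcgggaGGACTTTCCagccactcag
The window of *Nfkbib* held 0 matches of the consensus and 0 of the shorter pattern. A match is a run of letters and not a measured binding site.

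**Figure D1:**
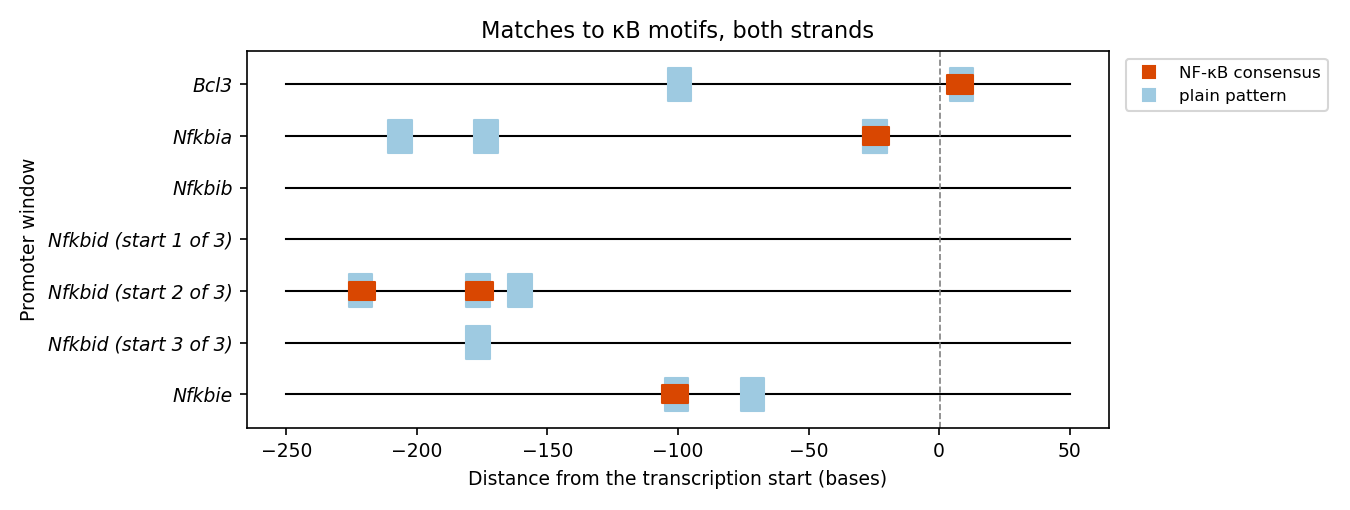
Positions of NF-κB motif matches in the 7 RefSeq promoter windows of 5 IκB genes. The x axis is the distance in bases from the transcription start, each line is 1 window, and the symbols separate the 10-letter consensus from the shorter pattern; the windows of *Nfkbib* and of the first *Nfkbid* start are empty, and the second *Nfkbid* start holds 2 consensus matches.

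*Nfkbia*, which encodes the main feedback inhibitor of NF-κB, was strongly raised by IL-1α in the cells without MK2 and little in the rescued cells. Its gene, ENSMUSG00000021025.9, is on chromosome 12 at 55536195 to 55539432 in the coordinates of the table. Its level was 587 in the UT and 7794 in the IL-1α library of i*MK2*-KO +*GFP* cells, and 480 and 815 in those of i*MK2*-KO +*MK2* cells. The IL-1α-treated +*GFP* library thus stood far above the other 3, which lay within a factor of 1.70. The response was 13.3-fold without MK2 and 1.70-fold with MK2, or 3.73 (3.61 to 3.85) and 0.76 (0.60 to 0.93) on the log2 scale with a pseudocount of 1. The log2 responses differed by 2.97 (2.76 to 3.17, a normal counting interval). The filter of a mean of 10 or more normalized counts left 12483 genes, and *Nfkbia* ranked 27th from the top in the response of the +*GFP* line and 190th in that of the +*MK2* line. Without stimulation the +*GFP* line was 1.22-fold above the +*MK2* line, 0.29 on the log2 scale (0.11 to 0.47), and after IL-1α it was 9.56-fold above it.

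*Nfkbie*, which encodes IκBε, another classical inhibitor that is resynthesized after NF-κB activation, had the same order of libraries at a lower count. ENSMUSG00000023947.9 lies on chromosome 17 at 45866629 to 45874095. It had 44 normalized counts in the UT and 821 in the IL-1α library of the +*GFP* line, against 36 and 68 in the +*MK2* line. The 2 UT libraries could not be told apart at this depth, with a log2 ratio of 0.28 (-0.38 to 0.97). IL-1α raised *Nfkbie* 18.7-fold without MK2, 4.19 on the log2 scale (3.78 to 4.69), and 1.89-fold with MK2, 0.90 (0.31 to 1.54). After IL-1α the line without MK2 was 12.1-fold above the rescued line. The difference of the log2 responses was 3.29 (2.57 to 4.01).

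*Nfkbib*, which encodes IκBβ, a classical inhibitor known for slow degradation and little resynthesis, had the smallest range. ENSMUSG00000030595.16 is on chromosome 7 at 28457676 to 28466937, where its ends overlap *Sirt2* and *Ccer2*. Its level was 1010 in the UT and 1502 in the IL-1α library of the +*GFP* line, and 1050 and 996 in those of the +*MK2* line. Only the IL-1α-treated +*GFP* library stood apart, 1.49-fold above its UT library, 0.57 on the log2 scale (0.46 to 0.69), and 1.51-fold above the other treated library. In the +*MK2* line the log2 response was -0.08 (-0.20 to 0.05), an interval that includes 0. *Sirt2*, the expressed neighbor, had 1223, 1300, 1171 and 1167 in the same order of libraries, and *Ccer2* at most 1. Whether the counting used the strand is not given in the sources used here.

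*Nfkbiz*, which encodes the atypical nuclear protein IκBζ, had the largest log2 response of the family in both lines. In the +*MK2* line its counting interval overlapped that of *Nfkbie*. ENSMUSG00000035356.18 is on chromosome 16 at 55631738 to 55659262. It had 190 normalized counts in the UT and 9664 in the IL-1α library of the +*GFP* line, against 183 and 526 in the +*MK2* line. The UT libraries differed by less than counting error, with a log2 ratio of 0.05 (-0.25 to 0.35), and the treated libraries were 18.4-fold apart. The response was 50.9-fold without MK2, 5.66 on the log2 scale (5.46 to 5.88), which put *Nfkbiz* at rank 4 of all genes tested. It was 2.87-fold with MK2, 1.52 (1.28 to 1.77), at rank 39. The log2 responses differed by 4.14 (3.82 to 4.46).

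*Nfkbid*, which encodes IκBNS, a nuclear IκB that binds mainly the NF-κB1 subunit, responded in both lines and by less. ENSMUSG00000036931.16 is on chromosome 7 at 30121157 to 30128171. Its level was 796 in the UT and 2357 in the IL-1α library of the +*GFP* line, and 639 and 959 in those of the +*MK2* line. The +*GFP* line was higher already without stimulation, by 0.32 on the log2 scale (0.16 to 0.47), and 2.46-fold higher after IL-1α. IL-1α raised the mRNA 2.96-fold without MK2, 1.56 (1.45 to 1.68), and by 0.58 on the log2 scale (0.44 to 0.73) with MK2. The difference of the log2 responses was 0.98.

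*Bcl3*, which encodes Bcl-3, a nuclear partner of NF-κB1 and NF-κB2 homodimers, was the member with the fewest reads. ENSMUSG00000053175.18 is on chromosome 7 at 19542387 to 19556695, where it overlaps *Gm16174* and *Gm16175*, which had at most 6 normalized counts. *Bcl3* had 30 normalized counts in the UT and 135 in the IL-1α library of the +*GFP* line, and 35 and 29 in the +*MK2* line. The 135 of the treated +*GFP* library stood above the other 3 values, which differed by no more than counting error. The log2 response was 2.13 (1.59 to 2.79) without MK2, a 4.50-fold rise, and -0.26 (-1.03 to 0.48) with MK2. The treated lines were 4.66-fold apart.

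**Figure D2:**
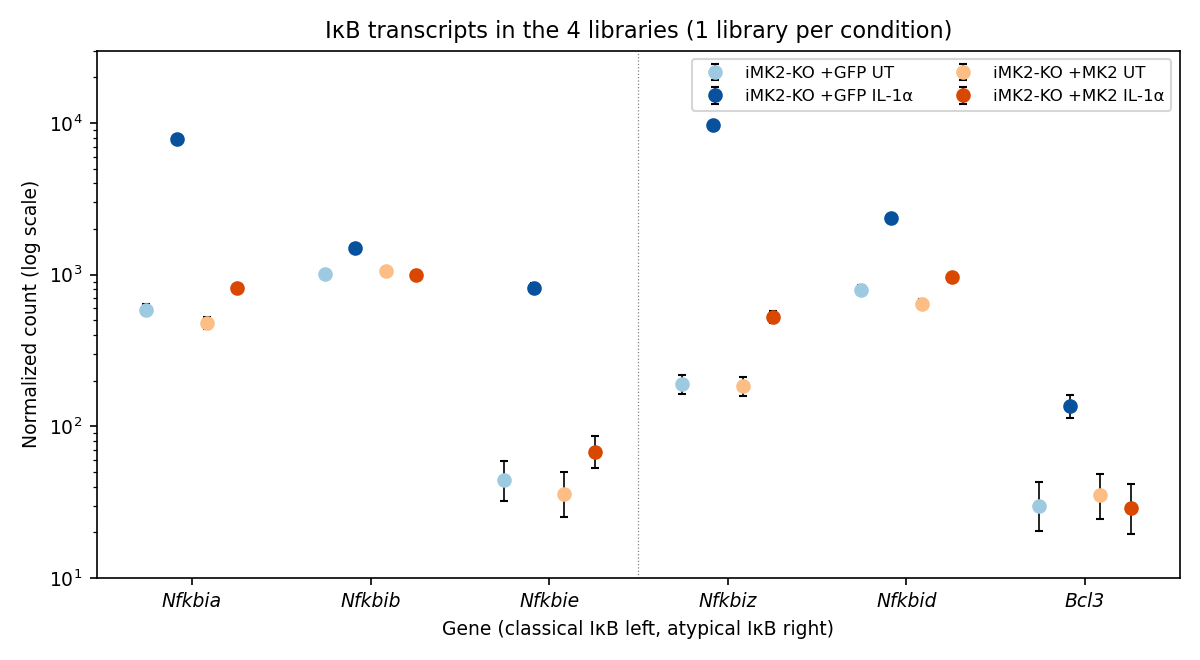
Normalized counts of the 6 IκB genes in the 4 libraries, on a log axis. Each dot is 1 library and its bar the exact 95% Poisson interval of counting error; all 6 genes are highest in the treated +*GFP* library, and *Nfkbib* has the narrowest range.

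Across the family, the lines differed little at rest and widely after IL-1α. In the UT libraries 0 of 6 members were 2-fold apart in either direction, where 3.51% of all genes tested were at least 2-fold higher and 5.26% at least 2-fold lower in the +*GFP* line. The counting interval lay above equality for 2 of 6, *Nfkbia* and *Nfkbid*, beside 30.8% of all genes, and below it for 0. In the IL-1α libraries 5 of 6 members, all but *Nfkbib*, were at least 2-fold higher without MK2, beside 4.16% of all genes, and the interval lay above equality for all 6, beside 33.7%. The median log2 ratio of the 6 members was 0.17 in UT cells and 2.72 in treated cells, where the median of all genes tested was 0.02 and 0.03.

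In the +*GFP* line IL-1α raised 5 of 6 members at least 2-fold, again all but *Nfkbib*, beside 2.25% of all genes, and all 6 beyond counting error, beside 20.0%. In the +*MK2* line 1 of 6, *Nfkbiz*, reached 2-fold, beside 0.889% of all genes. There 4 of 6 rose beyond counting error, beside 11.4%, namely *Nfkbia*, *Nfkbie*, *Nfkbiz* and *Nfkbid*. The median log2 response of the 6 members was 2.93 without MK2 and 0.67 with MK2, where that of all genes was 0.01 in each line. The response was at least 2-fold larger without MK2 for 4 of 6 members, beside 3.12% of all genes, with *Nfkbid* just under 2-fold. The normal counting interval of the difference lay above 0 for all 6, beside 15.9%, and the median difference was 2.68. All 6 members had their highest value in the treated +*GFP* library, as did 32.4% of all genes tested.

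**Figure D3:**
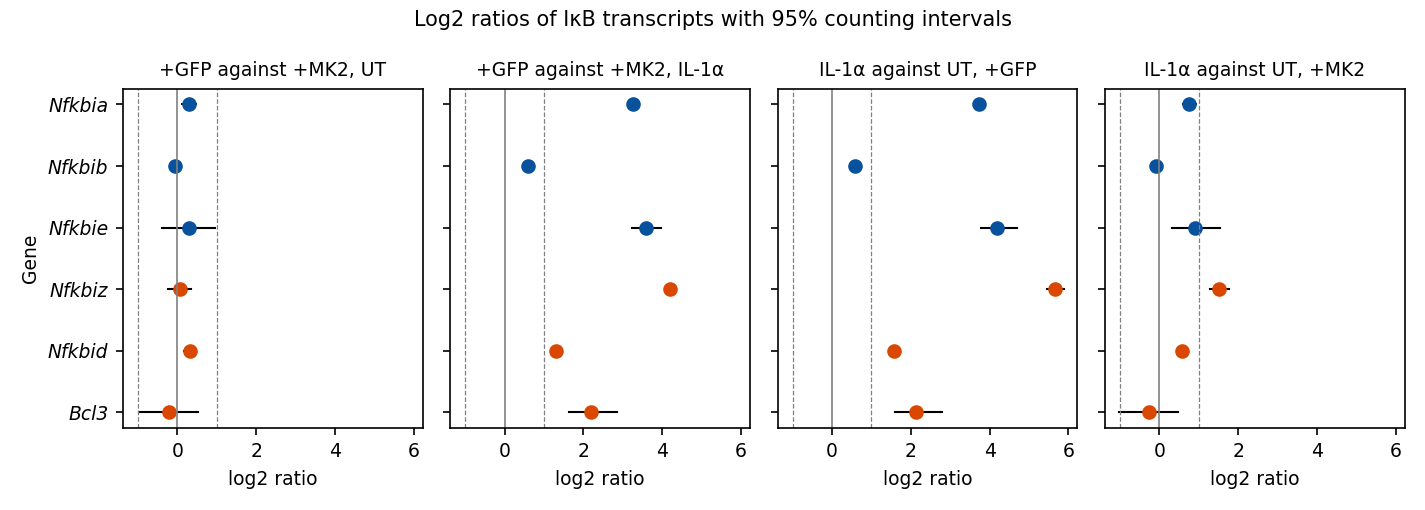
Log2 ratios of the 6 IκB genes (pseudocount 1) between the lines without and with IL-1α and between treated and UT cells of each line. Bars are exact 95% intervals of counting error and can be narrower than the dot; the ratios of UT cells lie between -0.22 and 0.32, those of treated cells between 0.59 and 4.20.

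**Figure D4:**
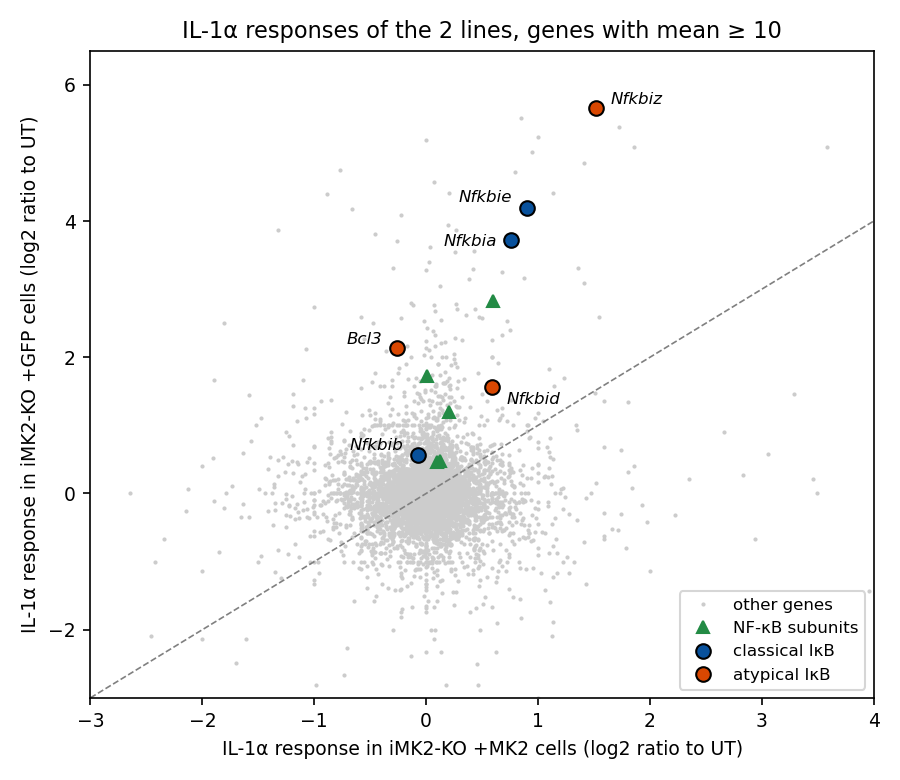
Log2 response to IL-1α of the +*GFP* line (y axis) against that of the +*MK2* line (x axis). Gray dots are all 12483 genes tested, triangles the NF-κB subunits and named dots the 6 IκB genes. The dashed line marks equal responses, and 37 genes lie outside the axes. All 6 named genes lie above the dashed line, with *Nfkbiz* farthest from it.

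The rise in normalized counts in rescued cells was a small part of that in cells without MK2. No counting interval was computed for this part, so close values are not ranked. It was 3.62% for *Nfkbiz*, 4.12% for *Nfkbie*, from a rise of only 32, and 4.65% for *Nfkbia*. *Nfkbid* kept the most, 20.5%, from a rise of 320 against one of 1561. For *Nfkbib* and *Bcl3* the counts of rescued cells dropped by 54 and 6, within counting error, while they rose by 492 and 105 without MK2. For comparison, the part was 2.80% for the cytokine gene *Tnf*, 1.78% for *Tnfaip3*, 1.95% for the adhesion receptor gene *Icam1*, 7.41% for *Relb* and 11.5% for *Zc3h12a*. For *Tnfaip3* the difference between the libraries of rescued cells was within counting error.

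The 6 members together had 2657 normalized counts in the UT and 22273 in the IL-1α library of the +*GFP* line, and 2423 and 3393 in the +*MK2* line. Their sum thus rose 8.38-fold (8.05 to 8.73) without MK2 and 1.40-fold (1.33 to 1.48) with MK2. The composition of this sum does not depend on the scaling of the libraries. In UT cells *Nfkbib* gave the largest share, 38.0% (36.2 to 39.9) without MK2 and 43.3% (41.4 to 45.3) with MK2. After IL-1α it gave 6.74% and 29.4%. *Nfkbiz* went from 7.15% (6.20 to 8.20) to 43.4% (42.7 to 44.0) in the +*GFP* line and from 7.55% to 15.5% in the +*MK2* line. *Nfkbia* went from 22.1% to 35.0% and from 19.8% to 24.0%. *Nfkbid*, whose share in UT +*GFP* cells was between 28.2 and 31.7%, went down to 10.6% without MK2 although its own count rose, and from 26.4% to 28.3%, with overlapping intervals, with MK2. *Nfkbie* and *Bcl3* gave at most 3.69% and 1.44%. The classical members together gave 61.8% of the counts in UT and 45.4% in treated +*GFP* cells, and 64.6% and 55.4% in the +*MK2* line. The gain of the atypical members in the +*GFP* line was that of *Nfkbiz*, since the shares of *Nfkbid* and *Bcl3* fell there. In the +*MK2* line *Nfkbiz* also gained, while the intervals of *Nfkbid* and of *Bcl3* overlapped between UT and treated cells. A longer mRNA yields more reads, so the shares compare libraries and not the number of mRNA molecules of different genes.

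**Figure D5:**
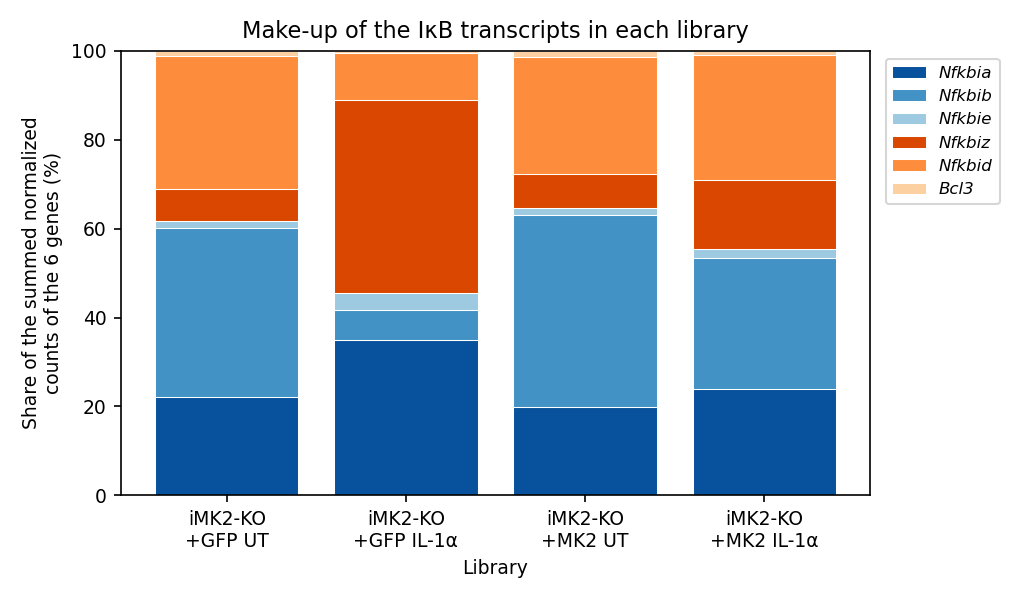
Share in percent of each IκB gene in the summed normalized counts of the 6 genes, 1 stacked bar per library, starting at 0. *Nfkbib* takes 38.0% and 43.3% in UT cells, and *Nfkbiz* takes 43.4% in the treated +*GFP* library and 15.5% in the treated +*MK2* library.

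Levels of different members were compared per kb of the longest coding transcript in GENCODE M21, from 1578 bases for *Nfkbia* to 4115 for *Nfkbiz*. In UT +*GFP* cells the order of normalized counts per kb was *Nfkbib* at 490, *Nfkbid* at 390, *Nfkbia* at 372, *Nfkbiz* at 46.2, *Nfkbie* at 18.1 and *Bcl3* at 16.2. Neighbors that could not be told apart by counting error were *Nfkbid* and *Nfkbia*, and *Nfkbie* and *Bcl3*. In UT +*MK2* cells the first 4 kept this order, with *Nfkbib* at 509 per kb, *Nfkbid* at 313, *Nfkbia* at 304 and *Nfkbiz* at 44.5, and again the middle pair overlapped. *Bcl3*, at 18.9 per kb, and *Nfkbie*, at 14.8, overlapped as well.

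After IL-1α the per-kb order of +*GFP* cells was *Nfkbia* at 4939, *Nfkbiz* at 2348, *Nfkbid* at 1156, *Nfkbib* at 729, *Nfkbie* at 337 and *Bcl3* at 73.0, and no neighbors overlapped. In treated +*MK2* cells *Nfkbia* at 516 per kb overlapped *Nfkbib* at 483, which overlapped *Nfkbid* at 470. *Nfkbiz* followed at 128, and *Nfkbie* at 27.9 overlapped *Bcl3* at 15.7. *Nfkbia* and *Nfkbiz*, the leading members per kb in treated cells without MK2, thus stood behind *Nfkbib* at rest in both lines. These lengths treat each gene as 1 transcript, and other isoforms would move the values.

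The mRNAs of the NF-κB subunits that the family binds rose less than those of *Nfkbia*, *Nfkbie* and *Nfkbiz* in cells without MK2. All 5 subunit mRNAs rose beyond counting error in the +*GFP* line, beside 20.0% of all genes tested, and 3 of 5 at least 2-fold, beside 2.25%. *Relb* went from 99 to 706 normalized counts and *Nfkb2*, which encodes the precursor of its partner, from 541 to 1787. *Rel* went from 1016 to 2338, *Rela* from 1360 to 1890 and *Nfkb1* from 1890 to 2594. In the +*MK2* line 0 of 5 reached 2-fold, beside 0.889% of all genes, and 4 of 5 rose beyond counting error, beside 11.4%. There *Relb* went from 86 to 131, and *Nfkb2* stood at 541 and 545. The median log2 response of the 5 was 1.20 and 0.13.

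Ratios of an IκB mRNA to a subunit mRNA within 1 library are free of scaling between libraries. The ratio of *Nfkbia* to *Rela* counts was 0.432 in UT cells of either line, with intervals of 0.391 to 0.476 and 0.388 to 0.482. After IL-1α it was 4.12 (3.92 to 4.34) without MK2 and 0.673 (0.615 to 0.736) with MK2. *Nfkbie* relative to *Rel* went from 0.0433 to 0.351 and from 0.0462 to 0.0756. *Nfkbiz* relative to *Nfkb1* went from 0.101 to 3.73 and from 0.113 to 0.304, and *Nfkbid* relative to *Nfkb1* from 0.421 to 0.909 and from 0.395 to 0.554. The response thus exceeded that of the subunit for each of these 4 in the +*GFP* line. For *Bcl3* relative to *Nfkb2* the intervals of all 4 libraries overlapped, with ratios of 0.0555 and 0.0755 without MK2 and 0.0647 and 0.0532 with MK2. *Nfkbib* relative to *Rela* was 0.743 and 0.795 without MK2, with overlapping intervals. In rescued cells it was 0.946 (0.869 to 1.03) and 0.822 (0.756 to 0.895), also overlapping.

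Few of the genes listed around the phosphorylation and ubiquitination of IκB proteins moved 2-fold at the mRNA level. A list of 9 genes held IKK subunits, IKK-related kinases, upstream kinases and the adaptors *Tab1* and *Tab2*. Of these 9, 1 was raised at least 2-fold in the +*GFP* line, beside 2.25% of all genes tested. This was *Ikbke*, an IKK-related kinase gene, which went from 501 to 1883. It stood at 696 and 749 in the +*MK2* line. In that line 0 of 9 rose 2-fold, beside 0.889% of all genes. *Ikbkb*, which encodes the kinase that phosphorylates IκBα, was lower in the +*GFP* line, at 1469 and 1609 against 2096 and 2158. Of 10 genes of the ubiquitin ligase complex and its conjugating enzymes, 0 were 2-fold apart in any comparison, with log2 ratios between -0.27 and 0.39 for the 4 pairs of libraries. The share of all genes tested that were 2-fold apart was 8.77% between UT lines and 9.73% between treated lines. It was 3.85% in the response without MK2 and 1.92% in that with MK2, so most genes were not 2-fold apart either.

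Among 6 deubiquitinases and ubiquitin binders that limit NF-κB signaling, 2 rose at least 2-fold in the +*GFP* line, beside 2.25% of all genes tested, and 0 in the +*MK2* line, beside 0.889%. *Tnfaip3*, which encodes the feedback inhibitor A20, went from 147 to 3524 normalized counts without MK2 and stood at 1147 and 1207 with MK2. It was thus more than 2-fold lower at rest in the +*GFP* line, whereas 0 of 6 IκB members were lower there. *Tnip1*, which encodes an A20 partner, went from 1340 to 3296 and stood at 1204 and 1233 in the +*MK2* line.

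Of 5 genes for RNA-binding proteins known to act on *Nfkbiz* mRNA or AU-rich mRNAs, 4 passed the filter. *Zc3h12a* encodes Regnase, an endonuclease known to cleave *Nfkbiz* mRNA. It went from 160 to 1590 without MK2 and from 104 to 268 with MK2, log2 responses of 3.30 and 1.36. *Zfp36*, which encodes tristetraprolin, went from 641 to 2569 and stood at 788 and 814 with MK2, log2 responses of 2.00 and 0.05. *Zc3h12a*, like *Nfkbiz*, therefore reached 2-fold in both lines, and *Zfp36* in the +*GFP* line.

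The AU-rich motif TATTTAT, known to be bound by tristetraprolin, was searched in the longest annotated 3′ UTR of each member on GRCm38 (GENCODE M21), on the strand of the gene. The motif was chosen after the values were known. It occurred 2 times in the 512-base 3′ UTR of *Nfkbia* and 0 times in those of the other 5 members. It is present in 27.6% of all 21006 genes with a 3′ UTR. Among the 2028 genes with a 3′ UTR of similar length to that of *Nfkbia*, 12.8% hold it and 3.01% hold it at least 2 times. The matches of *Nfkbia* start at positions 297 and 486 of the 3′ UTR and are shown with 11 bases before and 12 after, the motif in capitals.
*Nfkbia*, chr12:55489607-55489636, minus strand: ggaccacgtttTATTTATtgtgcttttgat
*Nfkbia*, chr12:55489418-55489447, minus strand: tctaagatgtaTATTTATtaaacagatttt
The shorter core ATTTA, which lies within TATTTAT, occurred 2 times in *Nfkbia*, 4 times in *Nfkbiz*, 1 time in *Nfkbid* and 0 times in the other 3. Its share over all genes was not computed, so these counts have no background beside them. *Tnf*, a known target of tristetraprolin, held TATTTAT 8 times in its 3′ UTR. Among genes with a 3′ UTR of similar length to that of *Tnf*, 19.1% hold it and 0.0847% hold it at least 8 times.

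Other NF-κB early genes were set beside the family. Of 14 listed, 13 passed the filter, and 10 of 13 rose at least 2-fold in the +*GFP* line, beside 2.25% of all genes tested. In the +*MK2* line 3 of 13 had a ratio of at least 2-fold, beside 0.889%. Only *Il1b* among them rose beyond counting error there. The intervals of *Cxcl2*, at 4 against 0, and *Traf1*, at 10 against 4, included equality. *Tnf* went from 332 to 10784 without MK2 and from 315 to 608 with MK2, *Icam1* from 1421 to 8329 and from 1392 to 1527. *Il1b*, which encodes IL-1β, went from 47 to 2007 and from 15 to 52. *Cxcl2*, a neutrophil chemokine gene, was at 0 in both UT libraries and at 981 and 4 in the treated ones. The secondary genes known to depend on IκBζ were mostly near 0 at this time point. Of 7 listed, *Ebi3*, a cytokine subunit gene, alone passed the filter, with 101 and 143 in the +*GFP* line and 31 and 39 in the +*MK2* line. The other 6 had at most 5 normalized counts, all of them in +*GFP* libraries, and 2 were at 0 throughout. A count of 0 allows up to 3 reads in a library.

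The genes with the most similar profiles over the 4 libraries were sought by Euclidean distance between centered log2 values, among the 10579 genes whose mean was 50 or more, with the 6 members left out. Such distances over 4 libraries are a description. Nearest to *Nfkbiz* among these genes were *Tnf* (distance 0.609), the transcriptional repressor gene *Prdm1* (0.974) and *Il1b* (1.31). For *Nfkbia* they were *Tnfsf9* (0.533), which encodes a TNF family ligand, *Zc3h12a* (0.548) and *Prdm1* (0.710). For *Nfkbie* they were *Prdm1* (0.476), *Tnf* (0.613) and *Gpr84* (0.683), a receptor gene. *Prdm1* was thus among the 3 nearest non-members of each of these 3 members. It had 11 normalized counts in the UT and 314 in the IL-1α library of the +*GFP* line, against 14 and 25 in the +*MK2* line. Its distances therefore rest on low counts outside the treated +*GFP* library.

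*Nfkbid* was nearest to the transcription factor gene *Ets2* (0.285), to *Skil* (0.308) and to the phosphatase gene *Dusp1* (0.311). *Bcl3* was nearest to *Rasgef1b* (0.246), to *Nfkb2* (0.372) and to *Rapgef2* (0.377). *Nfkbib* was not searched, since its highest and lowest libraries were 1.51-fold apart. Among the members themselves *Nfkbia* and *Nfkbie* were closest (0.375), followed by *Nfkbid* and *Bcl3* (0.743), and *Nfkbib* and *Nfkbiz* were farthest apart (4.20).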

How the data were processed

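RNA was sequenced in 4 libraries. Per the labels, poly(A) RNA and a stranded kit were used with paired 38-base reads, whereas the study's methods describe ribosomal depletion and single reads. The deposited values are DESeq2 normalized counts that the authors rounded to whole numbers (entered as a score, not as raw counts), in columns named as salmon output, with DESeq2 and the build GRCm38 named in the submitters' processing notes. Of 52080 gene identifiers shared with GENCODE M21 (GRCm38), 1494 had the same coordinates in the table, and 0 of 6 members did, so the build of the table's positions is not given and was not mixed with that of the printed sequences. No count model was run, since values are normalized and there is 1 library per condition. Computed here were log2 ratios with pseudocount 1, exact 95% Clopper-Pearson intervals of ratios and shares, exact Poisson intervals of levels, motif counts and profile distances (Python 3.11.15, numpy 2.4.6, pandas 2.3.3, scipy 1.17.1). Only the log2 ratios of 2 libraries and their intervals were checked on simulated data. Those data were Poisson counts, so the check does not cover error between cultures. Depth is known only as sums of normalized counts, and intervals cover counting error only. Genes with a mean of at least 10 entered the background of 12483 genes. Named were the members, the genes of fixed lists on which a result turns, and for each member with a 2-fold range its 3 nearest profiles. The members and lists were chosen with earlier results of these data known. Alternatives were scaling, pseudocount, fold threshold, filter and reads per normalized count. A search for a protein motif was not run. All columns of the table were mapped.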

Additional observations from a re-analysis of the deposited data

Results flagged for a closer look

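The responses of *Nfkbib* and *Bcl3* to IL-1α had opposite signs in the lines, upward in i*MK2*-KO +*GFP* cells and downward in i*MK2*-KO +*MK2* cells. The log2 responses differed by 0.65 for *Nfkbib* and by 2.40 for *Bcl3*. The downward values of the +*MK2* line, -0.08 and -0.26 on the log2 scale, lay within counting error, and with 1 library per condition the difference was not tested against replicate error.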

How the results depend on the processing

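The counts of members at least 2-fold apart, the median ratios and the median difference of responses held their direction and stayed within 1.5 times or within counting error under other scalings (trimmed mean of M values, equal sums, *Gapdh*), pseudocounts of 0.5 and 5 and a requirement that the whole interval pass 2-fold, with 1 exception. With a 1.5-fold threshold 4 members instead of 1 passed in the response of the i*MK2*-KO +*MK2* line, and *Nfkbid* lay on that threshold. The share of all genes at least 2-fold apart in either direction moved with the filter on low counts. From a mean of 10 to a mean of 50 or to no filter it went from 8.77% to 5.51% or 26.6% between UT lines, from 9.73% to 6.51% or 26.6% between treated lines, from 3.85% to 1.75% or 21.7% in the response without MK2 and from 1.92% to 0.397% or 19.9% in that with MK2, where 1 of 6 members passed. Scaling to *Gapdh* moved the median log2 ratio of all genes between the treated lines by -0.10, and no other scaling or comparison moved it by as much. No paired analysis was possible because each condition had 1 library, and leaving out a library would remove a condition. *Bcl3* and *Nfkbie*, with 29 to 68 normalized counts outside the treated +*GFP* library, limit what the depth can show.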
